A study of Mus musculus with 18 samples.

Results

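The semaphorins, plexins, neuropilins, Eph receptors and ephrins are cell-surface and secreted guidance proteins that steer growing axons and set boundaries between cells. Genes were taken by symbol from the deposited table of 35642 gene symbols, and 53 matched. They were 20 semaphorins, 9 plexins, 2 neuropilins, 14 Eph receptors and 8 ephrins. No measured value entered the choice.

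Semaphorins of class 3 are secreted, those of classes 4 to 6 span the membrane, and the class 7 member is held by a lipid anchor. Plexins are their signalling receptors, and most class 3 ligands need a neuropilin as the binding partner of an A-type plexin. Eph receptors are tyrosine kinases that meet ephrins on the neighbouring cell: A-type ephrins sit on a lipid anchor, B-type ephrins span the membrane, and signals can run into both cells. In epithelia both systems act on cell adhesion, repulsion and movement, and many of their genes are known to be active in tumours.

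The RNA came from untreated cultures of mouse pancreatic tumour lines 1151 and 2838, and the series title sets the question as how mitochondrial calcium relates to epithelial plasticity. The lines were developed from KPCY mice, whose alleles are KrasLSL-G12D/+, Trp53 LSL-R172H/+, Pdx1-Cre and R26LSL-Yfp/LSL-Yfp, with or without a floxed allele of Mcu, which encodes the channel pore of the uniporter that takes calcium into mitochondria. Line 1151 was measured as Mcu Cre-KO cells with an empty vector, called knockout-labelled here, and as the same Cre-KO cells with MCU put back, called re-expressing here. Both carried puromycin selection at 2 µg/mL. Line 2838 was measured as CRISPR-KO clones 17 and 42 and as wild-type-labelled clones 15 and 22, which carried an empty vector that the labels do not name for the CRISPR-KO clones. There were 3 libraries per group and 18 over the 6 groups. The labels give batch 1 for 1151 and batch 2 for 2838, which means that line and batch cannot be told apart. Each 2838 group is 1 clone.

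The level of Mcu RNA went against some labels. It averaged 15.0 ± 1.63 TPM in knockout-labelled 1151 libraries and 14.3 ± 1.06 TPM in re-expressing ones. In 2838 it averaged 119 ± 4.79 TPM in clone 17 and 11.4 ± 0.888 TPM in clone 42, against 75.2 ± 6.44 TPM in clone 15 and 83.3 ± 20.8 TPM in clone 22 (SD, n = 3 each). Mcu RNA is a limited check of the labels, which do not say whether the re-expressed MCU is counted under the mouse symbol or whether RNA remains after the gene is disrupted. Directions below are therefore directions between labelled groups. One library stood apart: clone 22 replicate 3 had 10760 genes at 1 TPM or more, against 11207 to 11507 in the other 17 libraries, and it was the lowest of the 12 libraries of 2838 for 22 of the 31 guidance genes tested there. Results in 2838 are given with and without it. The depth of each library was unknown, because TPM (a transcript's share of its library, corrected for transcript length) keeps no record of it. The 8 epithelial markers summed to 4479 to 6965 TPM per library, while all 6 fibroblast markers stayed under 1 TPM in every library. Of the neuronal list, 3 of 5 genes stayed under 1 TPM, and its sum of 2.75 to 22.7 TPM came mainly from Tubb3.

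The 3 promoters printed here belong to the genes the results turn on. Sema4f had the largest change in 1151, Efna4 was the only guidance gene called in both lines, and Efna1 lies 52247 bases from Efna4 on chromosome 3 and also fell in 1151. Each runs from 250 bases before to 50 bases after the gene's start, 5′ to 3′ on the minus strand, from RefSeq on GRCm38.p6. They lie at chr6:82939720-82940019 for Sema4f, chr3:89337979-89338278 for Efna4 and chr3:89280902-89281201 for Efna1, the one of 2 RefSeq entries nearest the annotated start of the gene. Capitals mark motif matches.
Sema4f: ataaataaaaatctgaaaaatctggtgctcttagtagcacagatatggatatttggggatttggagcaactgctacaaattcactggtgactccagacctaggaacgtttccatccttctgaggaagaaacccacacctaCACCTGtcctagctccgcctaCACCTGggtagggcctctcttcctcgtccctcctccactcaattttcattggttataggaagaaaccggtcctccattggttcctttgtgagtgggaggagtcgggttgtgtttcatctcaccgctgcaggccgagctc
Efna4: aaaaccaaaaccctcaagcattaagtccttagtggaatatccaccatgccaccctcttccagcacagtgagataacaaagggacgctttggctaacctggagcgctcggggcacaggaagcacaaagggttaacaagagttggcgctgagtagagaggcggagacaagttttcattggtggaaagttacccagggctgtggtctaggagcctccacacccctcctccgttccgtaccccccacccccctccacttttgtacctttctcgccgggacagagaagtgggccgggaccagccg
Efna1: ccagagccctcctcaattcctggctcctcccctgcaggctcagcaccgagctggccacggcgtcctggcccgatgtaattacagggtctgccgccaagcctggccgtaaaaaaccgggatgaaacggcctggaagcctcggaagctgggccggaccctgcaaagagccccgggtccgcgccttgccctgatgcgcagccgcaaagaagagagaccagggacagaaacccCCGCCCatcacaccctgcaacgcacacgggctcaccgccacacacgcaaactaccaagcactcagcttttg

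Each window was searched on both strands for 5 short motifs. The AP-1 motif was written as TGANTCA and was in 7.81% of all 32851 promoters. The motif of TEAD factors, written as GGAATG, was in 14.7%. The E-box of ZEB and SNAI factors was CACCTG. The remaining motifs were the SP1 motif, written as GGGCGG, and the TATA box, written as TATAAA. Sema4f held CACCTG 2 times without overlap, and 20.2% of all promoters held it at least once. Efna1 held GGGCGG 1 time, and Efna4 held none of the 5 motifs in this window. The promoters of 47 of the 53 genes were in the table, as 61 entries, and GGGCGG was in 46 of these (75.4%), against 35.7% of all promoters. CACCTG was in 8 of the 61 (13.1%) and TATAAA in 1 (1.64%, against 13.6% of all). The median number of CG pairs was 20 in the guidance promoters and 7 in all promoters. These counts describe letters in a window only.

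A broad subset of the guidance genes was on in both lines. Of the 53 genes, 37 reached 1 TPM in at least 1 library and 23 did so in all 18. The other 16 stayed under 1 TPM everywhere: Sema3d, Sema3g, Sema5a, Sema5b, Sema6a, Plxna4, Plxnb3, Plxnc1, Epha1, Epha3, Epha5, Epha6, Epha8, Epha10, Ephb1 and Ephb2. Plxnc1, the receptor of Sema7a, was among these.

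Plxnb2, Nrp2 and Epha2 led their families in every group, while the leading semaphorins and ephrins differed between groups. Sema3c, a secreted ligand with a mean of 79.0 TPM over the 18 libraries, was the highest semaphorin in every group but clone 17, where the transmembrane Sema4g led with 91.7 ± 4.47 TPM (SD, n = 3). Plxnb2, a receptor of class 4 semaphorins, averaged 255 TPM and made up 72.6% to 85.5% of all plexin TPM in the group means. Epha2, the main receptor of ephrin-A1 in epithelia, averaged 161 TPM and made up 54.4% to 76.3% of Eph TPM. Efnb2 and Efna1 were the highest ephrins, at 53.3 and 57.2 TPM on average, but Efna5 was above Efna1 in knockout-labelled 1151 libraries. Sema4g averaged 2.17 and 1.69 TPM in the knockout-labelled and re-expressing groups of 1151, and 44.5 to 91.7 TPM in the 2838 groups. Sema4a averaged 4.38 and 8.09 TPM in the same 1151 groups, and 46.9 to 79.6 TPM in the 2838 groups. Sema4f came next after Sema3c only in knockout-labelled 1151 libraries, at 45.6 TPM.

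**Figure D1:**
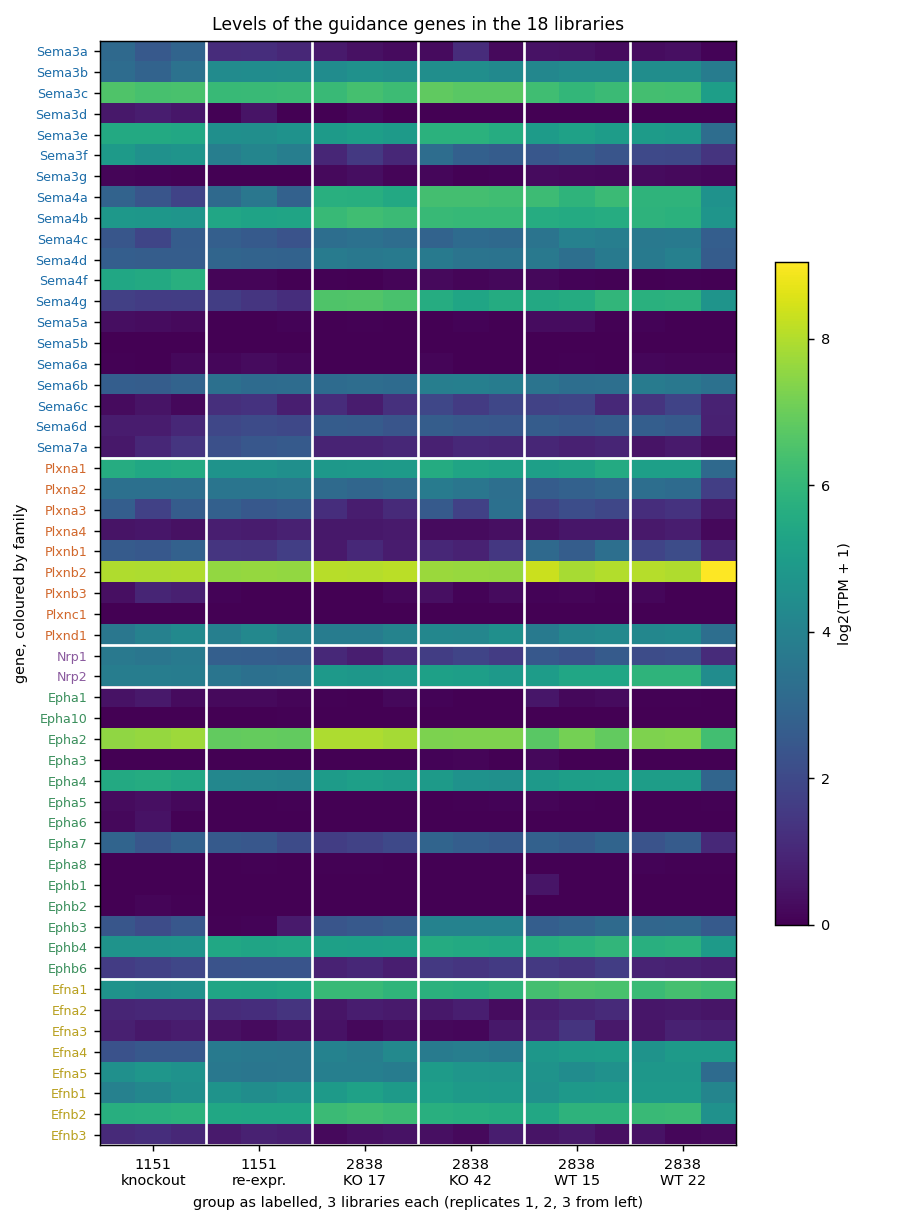
Levels of the 53 guidance genes (rows, coloured by family) in the 18 libraries (columns, 3 per group in replicate order), as log2(TPM + 1) from dark (0) to yellow. Plxnb2, Epha2 and Sema3c are the brightest rows, 16 genes stay under 1 TPM in every library, and clone 22 replicate 3, the last column, is darker than the rest of its clone for most genes and brighter for Plxnb2.

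Family totals differed between the 1151 groups in most families. Semaphorins summed to 268 ± 10.5 TPM in knockout-labelled libraries and 204 ± 1.82 TPM in re-expressing ones (SD, n = 3 each). Plexins summed to 328 ± 9.81 against 249 ± 3.81 TPM, neuropilins to 24.6 ± 0.473 against 15.3 ± 0.835 TPM, and Eph receptors to 281 ± 11.4 against 182 ± 2.07 TPM. Ephrins summed to 123.4 ± 5.997 TPM in knockout-labelled and 127 ± 3.15 TPM in re-expressing libraries, which is within their spread. The 4 receptor and semaphorin totals did not overlap between the groups. Such sums follow the abundant members and were given no test. In bulk RNA, fewer cells of a type and less RNA per cell cannot be told apart.

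In line 1151 the guidance genes changed in both directions. Of the 35 that reached 1 TPM in at least 3 of its 6 libraries, 16 were higher and 10 lower in knockout-labelled than in re-expressing libraries, 9 did not pass the test and 18 were not tested (limma on log2(TPM + 1), Benjamini-Hochberg adjusted p under 0.05 over 11630 genes). This was 74.3% of the guidance genes tested, beside 61% of all genes (34% higher, 27% lower). Sema4f, Ephb3 and Efnb3 reached 1 TPM in knockout-labelled libraries only, so they passed the filter on low values only through the group where they were high, had to differ, and are given below as values with no test. Of the other 32, 13 were higher and 10 lower, beside 59% of the genes that reached 1 TPM in a library of each group (32.6% higher, 26.4% lower). Changes of at least 1 on the log2 scale were called for 6 higher and 4 lower guidance genes (28.6%). Over all genes the share was 13.5% (7.52% higher, 5.99% lower). Sema4f and Ephb3 are among the 6. Sema7a and Sema6d, under 1 TPM in most knockout-labelled libraries, are among the 4. Neither share was redone without such genes, so the 28.6% rests in part on them. The groups of libraries did not overlap for 28 of the 35, beside 67.2% of all genes. Sema4f, Ephb3 and Efnb3 are among the 28, and the filter fixed that outcome for them. The median log2 change was 0.25, beside 0.05 over all genes. These tests use the spread among libraries of 1 knockout-labelled and 1 re-expressing population. When the spread between 2838 clones of 1 label was used instead, 2 guidance genes remained called, Sema3a and, with the same limit, Sema4f. No spread among 1151 libraries enters that fit. Sema3a averaged 0.188 to 0.522 TPM in the 2838 groups, so its spread there was taken near the floor and its call adds little. The share of all genes called in that fit is not given here.

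Sums of marker lists of other cell types also differed between these groups. They rest on few genes, since 1 neuronal, 1 Schwann cell and 2 immune genes were tested in 1151, and do not count cells. The neuronal list summed to 5.26 to 6.24 TPM in knockout-labelled and 2.75 to 3.93 TPM in re-expressing libraries. The Schwann cell list, with 4 of 5 genes under 1 TPM everywhere, summed to 2.05 to 3.00 TPM in knockout-labelled and 5.69 to 6.09 TPM in re-expressing libraries. The immune list summed to 32.0 to 34.8 TPM in knockout-labelled and 64.9 to 72.6 TPM in re-expressing libraries, mainly from Cd14, with 3 of 5 genes under 1 TPM everywhere. Their part in the guidance gene changes was not tested.

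**Figure D2:**
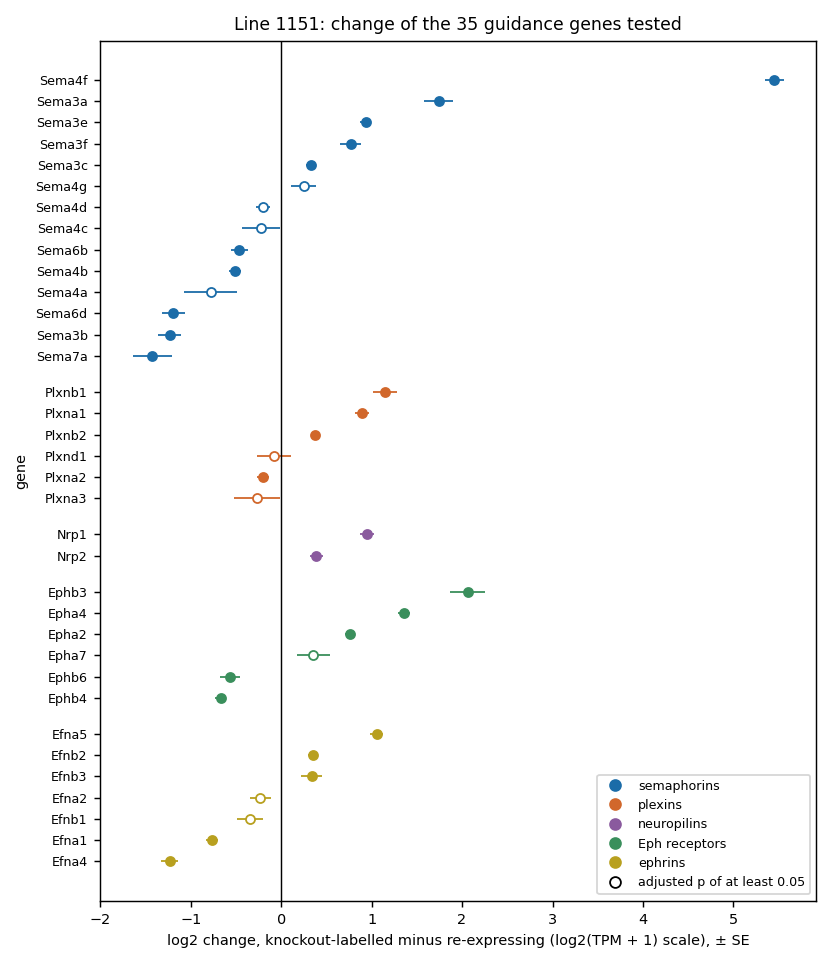
Log2 change, knockout-labelled minus re-expressing libraries of 1151 (x axis, log2(TPM + 1) scale), with its standard error, for the 35 guidance genes tested, by family. Filled points had an adjusted p under 0.05. Sema4f, Ephb3 and Efnb3 are filled but had to differ, so their points are a description. Sema4f at 5.45 lies far to the right of all others. Each of the semaphorins, plexins, Eph receptors and ephrins has filled points on both sides of 0.

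Among the semaphorin ligands, 5 rose, Sema4f included, 5 fell and 4 did not pass the test, beside 61% of all genes called. Sema4f, a transmembrane class 4 semaphorin studied mainly in the nervous system, was at 41.4, 43.8 and 51.5 TPM in knockout-labelled libraries, against 0.0845, 0.0974 and 0 TPM in re-expressing ones. It was abundant in one population and near 0 in the other. Its log2 change was 5.45 with a standard error of 0.11, given as a description because only the high group took it past the filter on low values.

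Sema4f lies at chr6:82911885-82939769 on the minus strand. Of the 18 other tested genes within 250000 bases of it, 13 were higher and 2 lower in knockout-labelled libraries, beside 34% and 27% of all genes. Their median log2 change was 0.68, beside a median of 0.27 over chromosome 6. The part of position in its change was not tested. In all 12 libraries of 2838 Sema4f was at or under 0.168 TPM.

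The secreted class 3 ligands mostly rose. Sema3a, the classical repellent that signals through Nrp1, was at 7.64, 4.82 and 6.61 TPM in knockout-labelled libraries, against 1.22, 1.27 and 1.03 TPM in re-expressing ones. The groups were far apart, with a log2 change of 1.74 ± 0.16 (SE; limma adjusted p = 0.000104). Sema3e, a ligand that binds Plxnd1 directly, was higher by 0.93 at 43.3 ± 0.881 against 22.2 ± 0.960 TPM, and Sema3f, which prefers Nrp2, by 0.77 at 25.6 ± 3.36 against 14.6 ± 1.53 TPM (SD, n = 3 each). Sema3c rose by 0.33, at 87.6 ± 4.07 against 69.4 ± 1.79 TPM.

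Sema3b went the other way. It was at 8.27, 6.44 and 9.52 TPM in knockout-labelled libraries, against 19.6, 20.1 and 20.6 TPM in re-expressing ones, a log2 change of -1.23 ± 0.13 (SE; limma adjusted p = 0.000196). Sema3b and Sema3f, both described as tumour suppressor candidates in human lung cancer, lie 72270 bases apart on chromosome 9 and moved in opposite directions. Sema3a and Sema3e lie 422710 bases apart on chromosome 5 and both rose.

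The falling membrane-bound ligands were Sema7a, Sema6d, Sema4b and Sema6b. Sema7a, the lipid-anchored member that also binds integrins, was at 0.503, 0.996 and 1.64 TPM in knockout-labelled libraries, against 3.62, 4.55 and 4.97 TPM in re-expressing ones (log2 change -1.42 ± 0.22 SE, limma adjusted p = 0.00119). Sema6d, a ligand of Plxna1, was at 0.609, 0.604 and 1.03 TPM in knockout-labelled libraries, against 2.83, 3.17 and 2.93 TPM in re-expressing ones (log2 change -1.19 ± 0.13 SE, limma adjusted p = 0.000250). For both genes no library of one group reached the range of the other. In knockout-labelled libraries only the values of 1.64 TPM for Sema7a and 1.03 TPM for Sema6d reached 1 TPM. Both genes thus passed the filter on low values through the re-expressing libraries, where they were high. Their tests and lack of overlap lean on that selection and add little to the values. Sema4b fell by 0.51 and Sema6b by 0.46 on the log2 scale. Sema4a, at 4.38 ± 1.89 against 8.09 ± 2.54 TPM (SD, n = 3 each), Sema4c, Sema4d and Sema4g did not pass the test, with adjusted p of 0.0558, 0.389, 0.0615 and 0.158.

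Of the 6 plexins tested, 3 rose, 1 fell and 2 did not pass the test, beside 61% of all genes called. Plxnb1, the receptor of Sema4d, was at 5.09, 4.63 and 6.02 TPM in knockout-labelled libraries, against 1.66, 1.59 and 2.23 TPM in re-expressing ones, with no overlap (log2 change 1.14 ± 0.13 SE, limma adjusted p = 0.000344). Plxna1 rose by 0.89, at 44.5 ± 3.67 against 23.5 ± 1.28 TPM, and Plxna2 fell by 0.20, at 9.09 ± 0.128 against 10.6 ± 0.353 TPM (SD, n = 3 each). Plxnb2 was at 253, 243 and 249.7 TPM in knockout-labelled libraries, against 192, 194 and 190.1 TPM in re-expressing ones, a log2 change of 0.37 (limma adjusted p = 0.000471). It lies on chromosome 15, whose genes had a median change of 0.45, and after centring on that median its change was -0.076 (limma adjusted p = 0.19), so that its call and direction rest on the comparison with all chromosomes.

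Both neuropilins rose. Nrp1, which serves class 3 semaphorins and VEGF, was at 11.5, 10.9 and 12.1 TPM in knockout-labelled libraries, against 5.72, 5.49 and 5.20 TPM in re-expressing ones, about the same in every library of a group (log2 change 0.95 ± 0.08 SE, limma adjusted p = 7.45e-05). Nrp2 averaged 13.1 ± 0.189 TPM in knockout-labelled and 9.81 ± 0.664 TPM in re-expressing libraries (SD, n = 3 each), a log2 change of 0.39 (limma adjusted p = 0.00353).

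Of the 6 Eph receptors tested, 3 rose, Ephb3 included, 2 fell and 1 did not pass the test, beside 61% of all genes called. Ephb3, which positions cells along the intestinal crypt, was at 4.37, 3.31 and 4.44 TPM in knockout-labelled libraries, against 0.0365, 0.0605 and 0.565 TPM in re-expressing ones, a log2 change of 2.06 ± 0.19 (SE), which is a description for the same reason as in Sema4f. Epha4, a receptor that takes ligands of both ephrin types, was at 43.9, 47.1 and 42.6 TPM in knockout-labelled libraries, against 17.4, 16.7 and 16.04 TPM in re-expressing ones (log2 change 1.36 ± 0.06 SE, limma adjusted p = 6.78e-06). Each group kept to a narrow range far from the other.

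Epha2 was at 188, 197 and 211 TPM in knockout-labelled libraries, against 116, 118 and 116 TPM in re-expressing ones (log2 change 0.76, limma adjusted p = 4.74e-05). Ephb4, the receptor of ephrin-B2, fell: it was at 24.1, 24.4 and 24.8 TPM in knockout-labelled libraries, against 40.9, 38.0 and 39.6 TPM in re-expressing ones (log2 change -0.67, limma adjusted p = 7.19e-05). The order of the receptors therefore changed, with Epha4 above Ephb4 in knockout-labelled libraries and below it in re-expressing ones. Epha4 took 15.9% ± 1.17 of Eph TPM in knockout-labelled and 9.19% ± 0.260 in re-expressing libraries, and Ephb4 8.70% ± 0.216 and 21.7% ± 0.733 (SD, n = 3 each). Ephb6, which lacks kinase activity, fell by 0.56, and Epha7 did not pass the test (adjusted p = 0.133).

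The ephrins split within the A type. Efna5 was at 22.6, 26.1 and 23.4 TPM in knockout-labelled libraries, against 11.2, 10.9 and 10.9 TPM in re-expressing ones (log2 change 1.06 ± 0.07 SE, limma adjusted p = 3.37e-05). Efna1, the usual partner of Epha2, was at 24.0, 21.6 and 23.1 TPM in knockout-labelled libraries, against 39.0, 38.4 and 41.1 TPM in re-expressing ones (log2 change -0.76 ± 0.06 SE, limma adjusted p = 7.62e-05). Efna4 was at 3.83, 4.59 and 4.60 TPM in knockout-labelled libraries, against 12.1, 11.5 and 11.1 TPM in re-expressing ones (log2 change -1.23 ± 0.09 SE, limma adjusted p = 4.31e-05). No library of these 3 genes crossed into the other group's range, and Efna5 and Efna1 were close to each other in knockout-labelled libraries.

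Efna4 lies at chr3:89333390-89338028. Of the 24 other tested genes within 250000 bases of it, 2 were higher and 10 lower, beside 34% and 27% of all genes. Their median log2 change was -0.18. Among the B-type ephrins, Efnb2 rose by 0.35, at 51.5 ± 2.16 against 40.1 ± 0.651 TPM (SD, n = 3 each). Efnb3 was at 1.12, 1.29 and 1.02 TPM in knockout-labelled libraries, against 0.590, 0.789 and 0.698 TPM in re-expressing ones, a log2 change of 0.34 given with no test. Efnb1 and Efna2 did not pass the test (adjusted p = 0.0689 and 0.119).

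Some partners of these receptors changed too. The lists of partners and signalling genes were drawn up for this account with earlier results of the data known. Of 11 semaphorin co-receptors and binding partners tested in 1151, 4 were higher and 6 lower, beside 34% and 27% of all genes. Of the 10 that reached 1 TPM in both groups, 3 were higher and 6 lower, beside 32.6% and 26.4% of all such genes. Kdr, a VEGF receptor that can pair with neuropilins, averaged 8.51 ± 0.239 TPM in knockout-labelled and 0.767 ± 0.0793 TPM in re-expressing libraries (SD, n = 3 each; log2 change 2.43). It passed the filter on low values through the knockout-labelled libraries only and is given with no test. Sdc3, a heparan sulphate proteoglycan, was higher by 1.76, while Itga1, an integrin subunit, was lower (log2 change -1.14), as was Gpc1, a glypican (log2 change -1.05). The endothelial list, to which Kdr was not assigned, summed to 0 to 0.136 TPM in knockout-labelled and 4.74 to 5.38 TPM in re-expressing libraries, with 4 of its 5 genes under 1 TPM everywhere and nearly all of the sum from Cdh5. Its part in the partner genes was not tested.

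Downstream of plexins, 16 of 29 signalling genes were higher and 5 lower, with a median log2 change of 0.44, and 15 and 5 of the 28 that reached 1 TPM in both groups. Rnd1, a small GTPase that binds plexin tails, averaged 55.0 ± 5.51 TPM in knockout-labelled and 6.15 ± 1.44 TPM in re-expressing libraries (SD, n = 3 each; log2 change 2.98, limma adjusted p = 1.09e-05). The actin-oxidising enzymes Mical3 and Mical2 were higher by 1.73 and 1.49, and the kinase Fyn by 1.41. Downstream of Eph receptors and ephrins, 9 of 28 genes were higher and 5 lower, with a median log2 change of 0.09, and 7 and 5 of the 26 that reached 1 TPM in both groups. Chn1, a Rac-inactivating protein downstream of Epha4, was higher by 2.08 and the exchange factor Arhgef19 by 0.80. Kalrn and the adaptor Grb10, with log2 changes of 2.24 and 1.38, reached 1 TPM in knockout-labelled libraries only and are given with no test. Over all genes tested, 61% were called in 1151.

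In line 2838 the clones did not separate by label for most guidance genes. On clone means, 0 of the 31 genes tested passed the limma test, beside 0.0763% of all 11795 genes, and 4 had an unadjusted p under 0.05, beside 5.61% of all genes. When clones 17 and 42 each had to differ from both clone 15 and clone 22 with one sign, 4 pairs in all, 1 guidance gene was called, Efna4, beside 1.01% of all genes (0.492% higher, 0.517% lower). The pairs share clones and are not independent of each other. Without clone 22 replicate 3 the count was 3 (1 higher, 2 lower), beside 3.88% of all genes (1.48% higher, 2.41% lower), and 0 on clone means, where 6 had an unadjusted p under 0.05, beside 6.36% of all genes. All 6 knockout-labelled libraries lay above all 6 wild-type-labelled ones for Sema4b, beside 3.53% of all genes, and below them for Efna1 and Efna4, beside 1.52% of all genes. Without that library, 1 gene lay above, beside 4.44% of all genes, and 6 below, beside 5.37%: Sema4c, Plxnb1, Nrp1, Ephb4, Efna1 and Efna4.

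Taken singly, the pairs differed in which guidance genes passed. Clone 17 differed from clone 15 in 7 (10.7% of all genes) and from clone 22 in 3 (6.49% of all genes). Clone 42 differed from clone 15 in 5 (12.3% of all genes) and from clone 22 in 7 (10.3% of all genes). Without clone 22 replicate 3 these counts were 19 and 13 for clone 17 (32.8% and 20.4% of all genes), and 15 and 15 for clone 42 (35.2% and 27.1% of all genes).

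Efna4 was at 15.1, 13.7 and 18.4 TPM in clone 17 and 12.6, 13.8 and 11.9 TPM in clone 42, against 26.5, 29.9 and 30.8 TPM in clone 15 and 24.2, 29.9 and 29.3 TPM in clone 22. Every library of clones 17 and 42 was below every library of clones 15 and 22. The log2 change was -0.86 and -0.79 for clone 17 minus clones 15 and 22, and -1.12 and -1.06 for clone 42, with a largest limma adjusted p of 0.0097. On clone means it was -0.96 with a standard error of 0.25 (unadjusted p = 0.00331, limma adjusted p = 0.42). Without clone 22 replicate 3 the median over the pairs was -0.94, with a largest limma adjusted p of 0.00377. Leaving out clone 17 replicate 1 or replicate 2 ended the call, at a largest adjusted p of 0.0536 and 0.0613.

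None of the 25 other tested genes within 250000 bases of Efna4 was called in all 4 pairs. With 1.01% of all genes called in that way, this says little about the region. Efna1, its neighbour, was at 68.3, 67.2 and 59.9 TPM in clone 17 and 54.5, 51.6 and 58.1 TPM in clone 42, against 79.5, 90.2 and 85.6 TPM in clone 15 and 71.3, 82.0 and 73.8 TPM in clone 22. Its libraries also did not overlap by label, but only 3 of the 4 pairs passed (median log2 change -0.42, largest limma adjusted p = 0.272). Clone 17 minus clone 22, at -0.21, was the pair that did not.

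**Figure D3:**
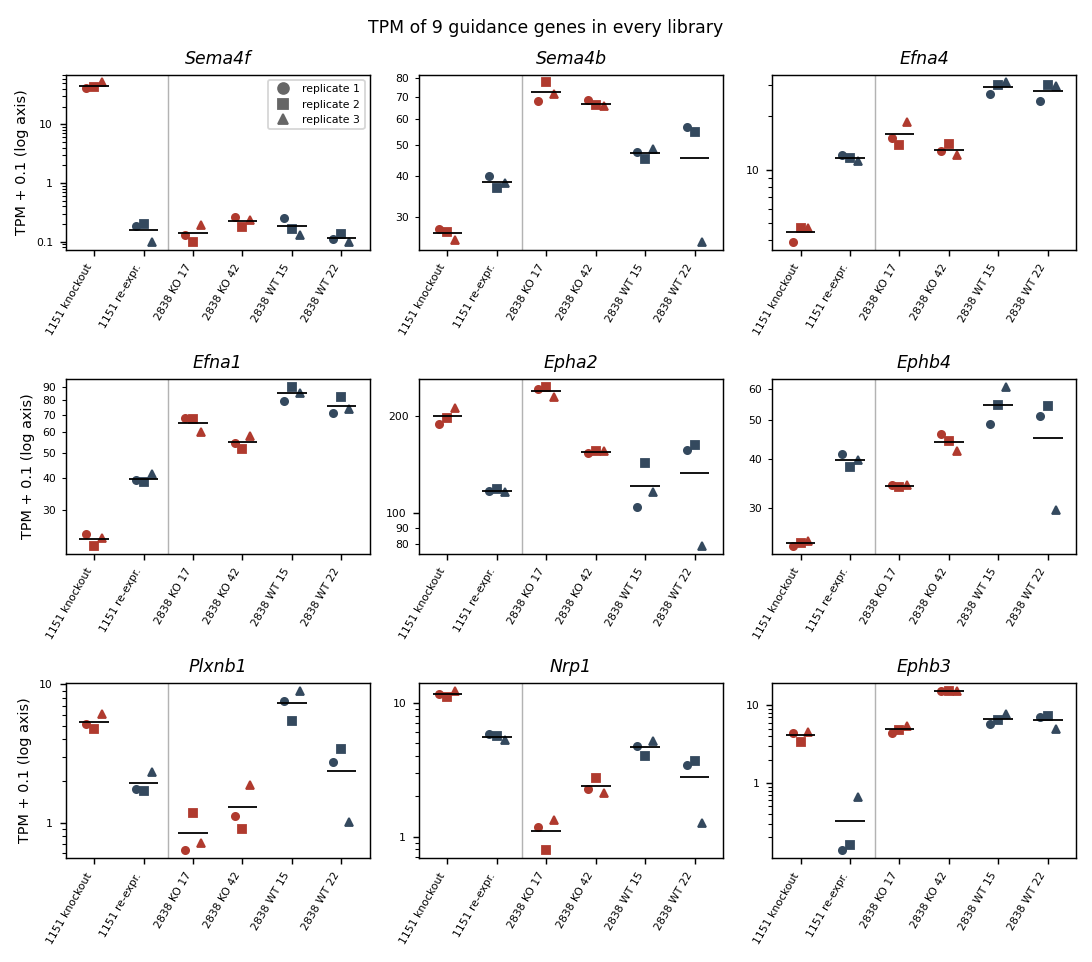
TPM (plus 0.1, log axis) of 9 guidance genes in each library, red for knockout-labelled and dark blue for re-expressing or wild-type-labelled groups, with a black line at the group mean. Efna4 and Efna1 are lower in the knockout-labelled groups of both lines, Sema4f is near 0 in every group but knockout-labelled 1151, and the triangle of clone 22 lies apart for Sema4b, Epha2, Ephb4, Plxnb1 and Nrp1.

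Sema4b was at 68.0, 77.4 and 71.5 TPM in clone 17 and 68.4, 66.0 and 65.4 TPM in clone 42, against 47.4, 45.1 and 48.2 TPM in clone 15 and 56.4, 54.6 and 25.1 TPM in clone 22. The 2 knockout-labelled clones were above the other two in every library. Its median log2 change over the pairs was 0.62 (largest limma adjusted p = 0.235), and without clone 22 replicate 3 it was 0.44 and was called in all pairs (largest adjusted p = 0.0253). In 1151 the same gene was lower in knockout-labelled libraries, by 0.51. The difference between the lines, -1.13, had an unadjusted p of 0.0107 and a limma adjusted p of 0.195.

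Plxnb1 was at 0.531, 1.07 and 0.615 TPM in clone 17 and 1.01, 0.803 and 1.76 TPM in clone 42, against 7.52, 5.30 and 8.88 TPM in clone 15 and 2.64, 3.28 and 0.901 TPM in clone 22. The 2 wild-type-labelled clones themselves differed, and clone 22 replicate 3 overlapped the knockout-labelled libraries. The median log2 change over the pairs was -1.38 (largest limma adjusted p = 0.301), and -1.55 without that library (largest adjusted p = 0.0235). The direction was opposite to that in 1151, where Plxnb1 was higher by 1.14, and the difference of 2.52 between the lines did not pass the test (limma adjusted p = 0.361).

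Nrp1, which rose in 1151, had the opposite sign in 2838 without passing the test in all pairs. It was at 1.07, 0.691 and 1.23 TPM in clone 17 and 2.16, 2.65 and 2.03 TPM in clone 42, against 4.64, 3.88 and 5.07 TPM in clone 15 and 3.35, 3.54 and 1.16 TPM in clone 22. The one overlapping wild-type-labelled library was clone 22 replicate 3. Its median log2 change over the pairs was -0.78 with 1 of 4 pairs past the test, and -0.96 without that library with 3 of 4 past it. The difference of 1.73 between the lines did not pass (limma adjusted p = 0.38).

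Epha2 was at 243, 246 and 229 TPM in clone 17 and 153, 155 and 156 TPM in clone 42, against 104, 142 and 116 TPM in clone 15 and 157, 162 and 78.9 TPM in clone 22. Clone 17 stood above all others, while clone 42 was above clone 15. It was within the range of clone 22 only through clone 22 replicate 3, at 78.9 TPM. The other libraries of clone 22 were above every library of clone 42. The median log2 change over the pairs was 0.64 (largest limma adjusted p = 0.431), and without clone 22 replicate 3 the 4 pairs no longer shared a sign. Sema3c (0.48) and Plxna2 (0.55) had one sign in all 4 pairs, did not pass the test in all, and also lost the common sign without that library. In all, 12 of the 31 guidance genes had one sign in all 4 pairs, beside 32.3% of all genes, and 10 without that library, beside 36.2%.

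**Figure D4:**
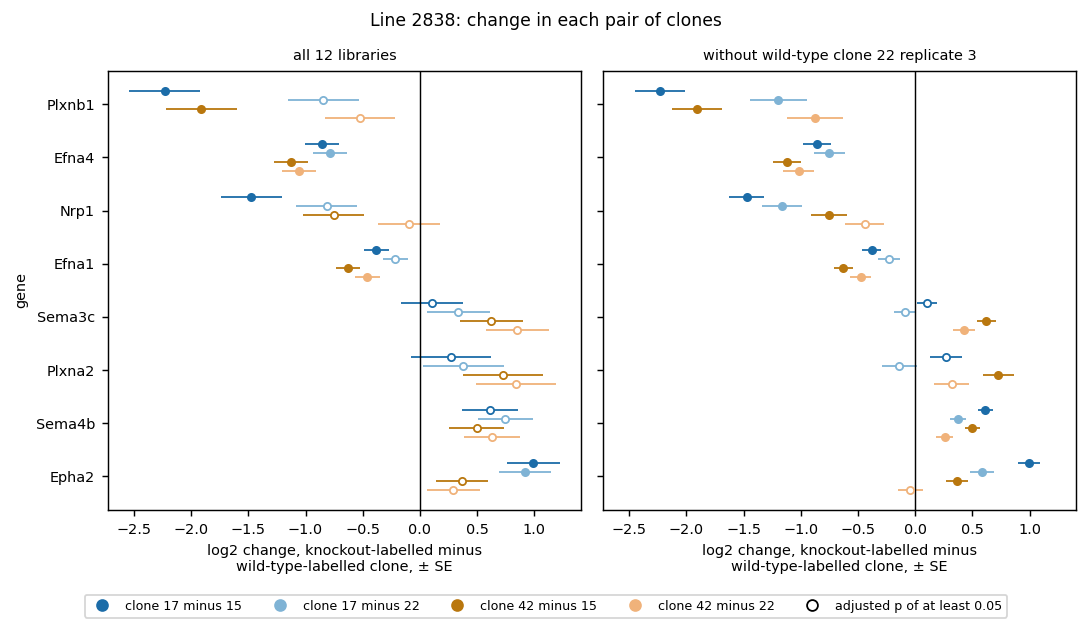
Log2 change (x axis, log2(TPM + 1) scale), with its standard error, of 8 guidance genes for clones 17 and 42 each minus clones 15 and 22 of 2838, 4 pairs in all, with all 12 libraries (left) and without clone 22 replicate 3 (right). Filled points passed the test; Efna4 is filled in all 4 pairs of both panels, and Plxnb1 and Sema4b only in the right one.

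Clones of one label also differed from each other. Clone 42 differed from clone 17 in 6 of the 31 guidance genes, beside 17.2% of all genes, and in 21 without clone 22 replicate 3, beside 41.5%. That library enters this contrast only through the shared estimate of the spread. Ephb3 was at 15.3, 15.2 and 15.1 TPM in clone 42, against 4.29, 4.79 and 5.32 TPM in clone 17, a log2 difference of 1.48 (limma adjusted p = 0.00024). The wild-type-labelled clones were at 4.85 to 7.67 TPM, and only clone 22 replicate 3, at 4.85 TPM, was within the range of clone 17. Without that library, clone 42 was higher than clones 15 and 22 (log2 changes 1.11 and 1.00, limma adjusted p = 6.52e-05 and 0.000433). Clone 17 was then lower than both (log2 changes -0.37 and -0.48, limma adjusted p = 0.034 and 0.0263). With all libraries clone 17 passed against neither (limma adjusted p = 0.232 and 0.309).

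Sema3f was at 8.46, 5.89 and 5.23 TPM in clone 42, against 0.985, 1.84 and 1.01 TPM in clone 17, a log2 difference of 1.72 (limma adjusted p = 0.000699). Sema4g was lower in clone 42, at 44.5 ± 4.60 against 91.7 ± 4.47 TPM in clone 17 (SD, n = 3 each; log2 difference -1.03, limma adjusted p = 0.0193). The other 3 were Sema6b, Plxna3 and Ephb6, all higher in clone 42. Clone 22 differed from clone 15 in 1 guidance gene, Plxnb1 (log2 difference -1.39, limma adjusted p = 0.048), beside 1.92% of all genes, and in 4 without clone 22 replicate 3, beside 6.86%.

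The effects in the 2 lines were compared directly for 36 guidance genes. Sema4f was the only one whose log2 change differed between the lines past the test, by 5.41, beside 1.1% of all 12458 genes. Only the knockout-labelled 1151 libraries took it past the filter on low values, so it had to differ, and its difference is a description. A further 5 had an unadjusted p under 0.05, 6 in all, beside 14% of all genes: Sema3a, Sema3b, Sema4b, Sema6d and Sema7a. Without clone 22 replicate 3, Plxnb1, Nrp1 and Epha4 joined them, 9 in all, beside 18.9% of all genes, and Sema4f was again the only one past the adjusted test. Since the lines also differed in batch, in how Mcu was removed and in how well Mcu RNA followed the labels, the part of each in these differences cannot be told apart.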

How the data were processed

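The deposited file was a single table of gene-level TPM for 35642 symbols in 18 libraries of polyA RNA. The submitters' processing notes name Salmon, DESeq2 and the mm10 build; their versions and the annotation were not given in the sources used here. The TPM that the authors deposited are corrected for transcript length and scaled to one total, so a rise of abundant genes lowers all others. Depth per library is unknown, and no counting intervals are given.

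Genes were matched by symbol, and groups, clones and batches came from the labels. Columns were matched to libraries by the clone and replicate number in the titles. For 9 libraries of 2838 a label also holds a second library name with another number, so replicate numbers, that of clone 22 replicate 3 included, are only as sure as the titles. The log2(TPM + 1) values, computed here, were tested with limma 3.58.1 (R 4.3.3, variance trend on) and adjusted by Benjamini-Hochberg over every gene that reached 1 TPM in 3 or more of the libraries fitted. Calls are at an adjusted p under 0.05. Changes on this scale understate those of low genes. The 1151 fit used 6 libraries. For 2838, where a label was given to a clone, 2 clone means were compared with 2, and all 4 clone pairs were tested in one fit. The lines were compared on 6 group means, where only 2838 clones of 1 label give a spread. Libraries of a group are not labelled as separate cultures, so p-values between them may measure technical spread only.

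The genes, lists and tests were chosen with earlier results of these data known. Genes were given with values if they were called in 1151 with a log2 change of at least 1, were called in 2838, or, to make 8, had the largest median change over the pairs with one sign. Genes called between lines, the 3 most abundant of each family, up to 4 called genes per list, and Mcu were added; other guidance genes complete the account of their family. Positions are from GENCODE M21 (mm10), matched for 53 of 53 genes. Each fit was also run on simulated data, and the outcome is not given here. The simulation gave every gene the same spread between clones and held no library that stood apart. It therefore cannot vouch for the calls in 2838 or between lines. Alternatives were a pseudocount of 0.1, other filters and scalings, centring per chromosome, no trend, a replicate block, another unit of spread, and leaving out each library or clone.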

Additional observations from a re-analysis of the deposited data

Results flagged for a closer look

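Sema4f was marked because its effect differed between the lines by a direct test. Its log2 change was 5.45 in 1151 and near 0 in 2838, where all 12 libraries were at or under 0.168 TPM, and the difference was 5.41 (limma adjusted p = 0.0337 over 12458 genes). It was higher in 3 of 3 knockout-labelled libraries of 1151. It reached 1 TPM in those 3 libraries only, so it passed the filter on low values through the group where it was high and had to differ, and this p supports nothing beyond the values. The groups hold 3 libraries or single clones, so no test for single libraries far from their group was made. With the trend in the variance prior left out, the difference was the same in size and its adjusted p was 0.0594.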

How the results depend on the processing

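The limits come first from the unit: 1151 is 1 population per label and 2838 is 2 clones per label. The share of all genes called also moves with the setting. In the 2838 pairs it was 1.01% with all libraries and 3.88% without clone 22 replicate 3. It is not given for most settings, so the counts below do not show a response particular to guidance genes. In 1151 the count of 26 called guidance genes was 2 with the spread between 2838 clones of 1 label. It ranged from 22 to 25 with 1 library left out, 19 to 31 under the other alternatives and 25 with the replicate block. Replicate numbers are only numbers here: same-numbered 1151 libraries had correlations of -0.029, -0.14 and -0.15 of their deviations from the group means. In the 2838 pairs the count of 1 was also 1 with the replicate block, 2 with median-of-ratios scaling and 2 with quantile normalization (Sema4b added to Efna4). It was 2 without clone 17 (Efna4, Ephb3), 8 without clone 22, and 0 to 3 with 1 library left out. On clone means the count of 0 was 2 without clone 17 (Efna4, Sema3e), 3 without clone 42 (Epha2, Plxnb1, Sema4g) and 0 with each library left out. The count of 1 between lines was 4 without a filter (Epha6, Sema3a, Sema3d, Sema4f), 0 without the trend, and 0 to 1 with 1 library left out; it was 0 without any 1151 knockout-labelled library, since Sema4f then fails the filter on low values.

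Plxnb2 reversed in 1151 to -0.076 with centring per chromosome and stayed between 0.36 and 0.39 with 1 library left out. The other reversals among the genes given with values were of values that passed no test. With 1 library left out, 2838 clone-mean changes ranged from -0.0068 to 0.31 for Sema4a, -0.084 to 0.42 for Plxna1, -0.16 to 0.36 for Epha4 and -0.021 to 0.38 for Efnb2, and the difference between lines for Sema3c from -0.26 to 0.065; clone 22 replicate 3 gave each reversed end. Without it the 2838 clone-mean changes of Sema4d (-0.075), Sema6d (-0.066), Plxnd1 (-0.058) and Ephb6 (-0.0031) also turned sign. Efnb2 was -0.042 without clone 17, and Sema4a -0.15 without clone 42. Without clone 22, Sema4a was -0.098, Plxna1 -0.17 and Epha4 -0.15. The causes were not tested. Low genes are limited by the unknown depth. The log2 ratios of the family totals were checked with median-of-ratios scaling and with 1 library left out. Each check was of 1 family ratio under 1 setting. In 1151 the ratio moved by at least the spread among libraries in 5 checks and did not in 30. In 2838 all 65 stayed within it.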

Other observations

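Other axon guidance families, the netrins, slits, their receptors and the FLRT and RGM proteins, were mostly silent, and 9 of 26 genes were tested in 1151. Of these, 7 were higher and 2 lower in knockout-labelled libraries, beside 61% of all genes called in either direction. Flrt2, Unc5c and Slit2 reached 1 TPM in 1 of the groups only, so they had to differ and are given with no test, and the other 6 were 5 higher and 1 lower. Flrt2, an adhesion protein that binds Unc5 receptors, averaged 3.52 ± 0.102 TPM in knockout-labelled and 0.00985 ± 0.0102 TPM in re-expressing libraries (SD, n = 3 each; log2 change 2.16), and it was listed at 0 in all 12 libraries of 2838. Unc5c, a netrin receptor, had a log2 change of 1.08. Slit2, a ligand of Robo1, averaged 0.501 ± 0.243 TPM in knockout-labelled and 2.65 ± 0.392 TPM in re-expressing libraries, and Robo1 1.06 ± 0.0516 and 3.33 ± 0.103 TPM (SD, n = 3 each; log2 changes -1.29 and -1.07, limma adjusted p = 8.77e-05 for Robo1). In 2838 no gene of this list was called on clone means or in all 4 pairs, and 1 of 7 tested differed between clones 42 and 17.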
